A study of Mus musculus with 2 samples.

Results

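The genes described here encode the nuclear-made parts of mitochondrial respiration and of the mitochondrial ribosome, measured in CD5-positive gamma delta T cells from mouse spleen. Members were all genes whose platform symbol begins with Nduf, Sdh, Uqcr, Atp5, Mrpl, Mrps, Timm or Tomm, or with Cox and a digit from 4 to 8. This rule used names and no measured value, and it found 39 single-gene probes for 37 genes, out of 4331 named genes on the arrays. Of these 37 genes, 22 belong to the respiratory chain and ATP synthase, 9 to the mitochondrial ribosome and 6 to the import translocases. One further probe whose annotation lists several genes matched the rule and was left out.

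The study set gamma delta T cells of LAT3YF mice against those of wildtype mice. LAT is a membrane adaptor through which the T cell receptor reaches its downstream enzymes, and 3YF denotes tyrosine-to-phenylalanine changes in it. Both populations were isolated from spleen with anti-CD5 magnetic beads followed by cell sorting, so selection through CD5, a surface glycoprotein of T cells, is common to both. The 2 arrays carried both RNAs, with the dyes reversed between a + polarity and a - polarity hybridisation. The labels give no age, no number of animals and no separate RNA extracts, so the pair counts as 1 replicate and an SD below covers the technical difference between the arrays only.

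Respiration takes electrons from nutrients through complexes I to IV of the inner mitochondrial membrane, and ATP synthase, also called complex V, uses the proton gradient that results. Most subunits are encoded in the nucleus, made in the cytosol and brought in by the TOM and TIM translocases, while a few core subunits are made inside by the mitochondrial ribosome. In T cells, activation and proliferation are known to raise the demand on both respiration and mitochondrial translation.

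Each value is the deposited log ratio of the 2 RNAs, read as log10 and with the sign of the - polarity array turned, so that both arrays run the same way. The labels do not say which population is the numerator. A positive ratio therefore means a transcript more abundant in 1 of the populations, the same one for every gene, and whether that is LAT3YF or wildtype is not settled here. As landmarks for the sign, the type 2 cytokine gene Il13 had a log10 ratio of 1.01 ± 0.055 and the T cell transcription factor gene Gata3 one of 0.593 ± 0.0057 (SD, 2 arrays). The deposited values were already centred, with medians of -0.00283 (+ polarity) and 0.00101 (- polarity) before turning. The files hold ratios only, so transcript levels, detection and the labelled cell type could not be checked against absolute signal. The 7 measured genes of a gamma delta T cell marker list lay between -0.185 (Cd247) and 0.614 (Cd5). Among them Cd3d was at -0.00738 ± 0.0063, Cd3g at 0.0954 ± 0.025 and Cd3e at 0.110 ± 0.10. Sox13 was at 0.465 ± 0.034, and Thy1, with opposite signs on the arrays, at 0.089 ± 0.17. Folds in brackets assume base 10, under which the largest member ratio is 1.66-fold, and would be 1.16-fold if the values were log2.

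The mitochondrial genes lay on the positive side with small ratios. Their median log10 ratio was 0.083 (1.21-fold), against 0.0023 for all named genes, and it was 0.0867 (+ polarity) and 0.0624 (- polarity). Of the 37 genes, 27 were positive on both arrays, where 30.2% of all named genes were. A further 3 (Mrpl9, Cox7a2l and Atp5b) were negative on both arrays, where 29.3% of all named genes were, and 7 had opposite signs. A difference of at least 25% (a log10 ratio of 0.0969) with the same sign on both arrays was reached on the positive side by 15 of the 37, against 16.5% of all named genes. On the negative side it was reached by 1, Mrpl9, against 16.4% of all named genes. Only Ndufa12 and Timm8b of the 37 reached 1.5-fold on the positive side, which 8.43% of all named genes did. None of the 37 reached 2-fold, in the mean or on either array alone, against 8.75% of all named genes in the mean. These thresholds are rules of size and test nothing, since no replicate of the comparison was made. They also rest on base 10, and if the values were log2 or natural logs, 0 members would pass the 25% difference. On the - polarity array alone 2 members, Mrpl9 and Mrpl44, passed it on the negative side. In bulk RNA, fewer cells of a type and less RNA per cell cannot be told apart.

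**Figure D1:**
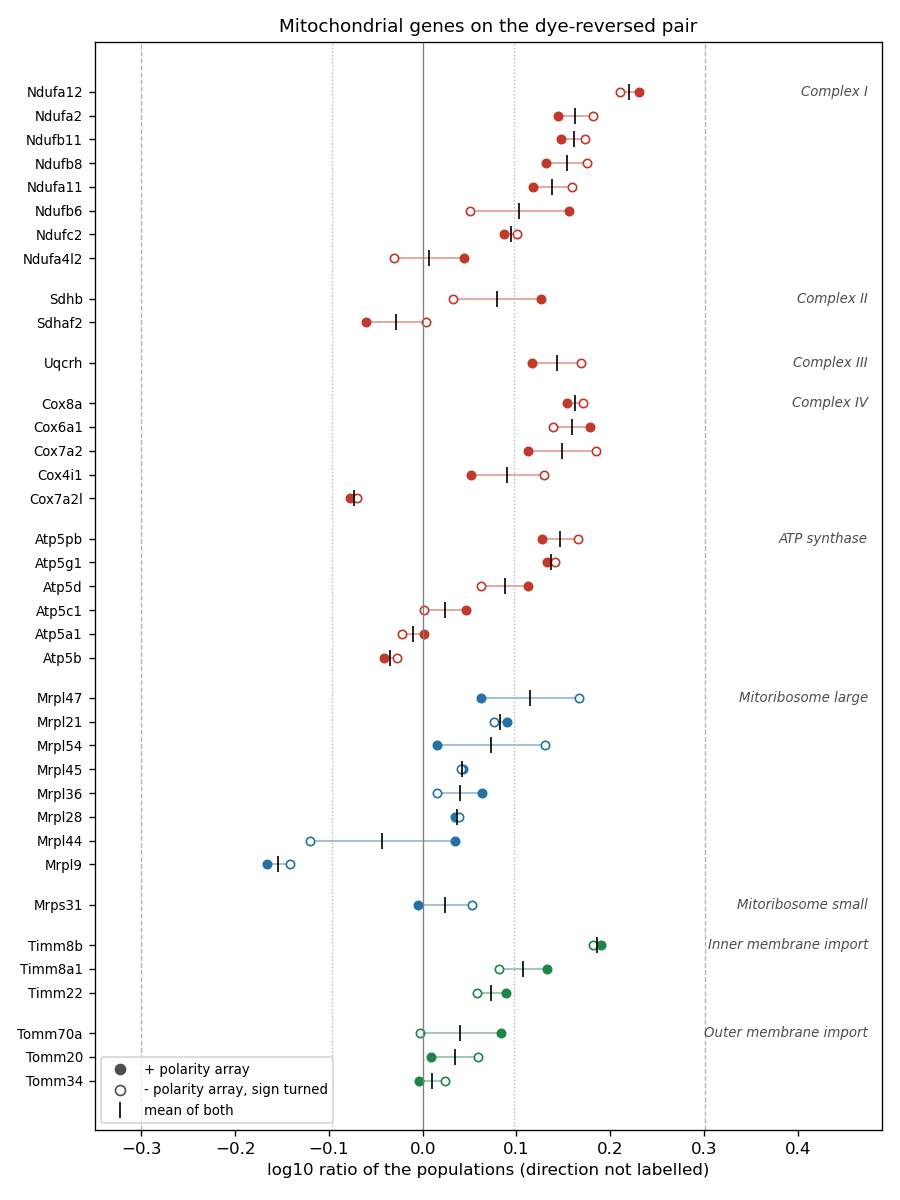
Log10 ratios of the 37 mitochondrial genes by role, on the + polarity array (filled), on the - polarity array after turning its sign (open) and as their mean (bar). Dotted lines mark a 25% difference and dashed lines 2-fold. Most complex I genes and the inner membrane translocase genes lie right of 0 on both arrays, while Mrpl9 and Cox7a2l lie left of it on both.

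Cell division genes lay mostly on the same side as these ratios, and macrophage, B cell and NK cell markers mostly on the opposite side. On the side of the mitochondrial genes, 18 of 19 measured cell division genes were positive on both arrays, and Mcm6 was negative on both. The 19 lay between -0.245 (Mcm6) and 1.10 (Rrm2), with a median of 0.301. Of all named genes, 30.2% were positive on both arrays and 29.3% negative on both. On the other side, all 10 measured macrophage markers were negative on both arrays, between -1.17 (Slc40a1) and -0.0221 (Itgam), with a median of -0.936. B cell markers had a median of -0.263 (7 of 9 negative on both arrays) and NK cell markers one of -0.512 (7 of 8). Erythroid and platelet markers had no settled side, with medians of 0.000475 (+ polarity) and -0.464 (- polarity), and 3 of 6 were negative on both arrays. The part of these genes in the mitochondrial ratios was not tested.

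The means of the members ranged between -0.154 (Mrpl9) and 0.220 (Ndufa12) with an SD over genes of 0.0809, against 0.193 over all named genes. The median distance of a gene's array values from their mean was 0.0207 for the members and 0.0410 for all named genes. Small values of both were not particular to the members, since the 45 cytosolic ribosomal protein genes had an SD over genes of 0.0598 and a median distance of 0.0166, and the 19 proteasome subunit genes 0.0606 and 0.0280. Across the 37 genes the 2 arrays gave Pearson r = 0.766 and Spearman rho = 0.745, against 0.403 and 0.240 across all 4331 genes. These are descriptions across genes that share the same hybridisations. Limma's moderated test over the 2 arrays, which measures only the technical spread with 1 residual degree of freedom, gave 0 of the 37 an adjusted p under 0.05 and 10 an unadjusted p under 0.05. Over all 4331 genes the numbers were 0 and 791.

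**Figure D2:**
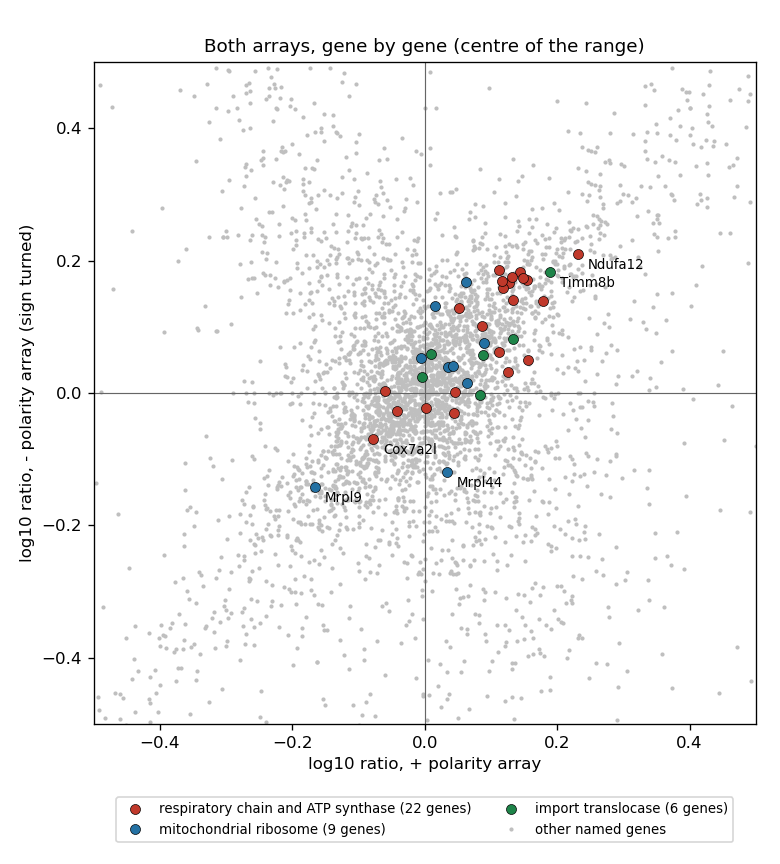
Log10 ratio of each gene on the - polarity array, sign turned (vertical), against the + polarity array (horizontal), for the 37 mitochondrial genes (coloured by role) and the other 4294 named genes (grey). The axes stop at 0.5, which leaves out 304 of the other genes and none of the members. The members gather in the upper right quadrant, inside the span of the other genes.

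Because respiratory genes are known for promoter motifs of the factors NRF1, GABP (also called NRF-2) and YY1, the promoters were searched for short core sequences of each. RefSeq promoter windows on GRCm38.p6, spanning 250 bases before to 50 after the transcription start, were found for 32 of the 37 genes. Windows are shown for the highest member with a match to any of the cores (Timm8b), for a pair of cytochrome oxidase genes with large positive ratios (Cox6a1 and Cox8a), and for the member with the lowest ratio (Mrpl9). They are printed 5′ to 3′ on the gene's strand with motif matches in capitals. Timm8b lies at chr9:50603651-50603950 (+), Cox6a1 at chr5:115348909-115349208 (-), Cox8a at chr19:7217567-7217866 (-) and Mrpl9 at chr3:94443086-94443385 (+).
Timm8b: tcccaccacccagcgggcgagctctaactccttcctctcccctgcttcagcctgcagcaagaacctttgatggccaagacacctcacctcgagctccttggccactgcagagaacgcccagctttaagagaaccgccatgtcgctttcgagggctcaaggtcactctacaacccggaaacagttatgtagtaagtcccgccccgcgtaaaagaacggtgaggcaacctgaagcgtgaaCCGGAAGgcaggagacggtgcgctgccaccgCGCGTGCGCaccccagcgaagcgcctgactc
Cox6a1: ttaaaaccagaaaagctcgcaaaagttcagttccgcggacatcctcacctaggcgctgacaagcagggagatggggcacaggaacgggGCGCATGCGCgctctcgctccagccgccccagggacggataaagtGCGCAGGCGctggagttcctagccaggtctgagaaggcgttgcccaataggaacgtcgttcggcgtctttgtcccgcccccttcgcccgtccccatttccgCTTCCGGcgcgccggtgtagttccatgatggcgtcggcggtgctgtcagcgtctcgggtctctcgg
Cox8a: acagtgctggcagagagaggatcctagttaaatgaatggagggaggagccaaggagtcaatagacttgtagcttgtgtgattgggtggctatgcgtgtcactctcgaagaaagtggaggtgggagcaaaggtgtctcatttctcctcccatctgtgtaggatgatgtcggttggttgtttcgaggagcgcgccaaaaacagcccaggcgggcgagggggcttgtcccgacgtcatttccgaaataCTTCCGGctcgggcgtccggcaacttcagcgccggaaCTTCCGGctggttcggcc
Mrpl9: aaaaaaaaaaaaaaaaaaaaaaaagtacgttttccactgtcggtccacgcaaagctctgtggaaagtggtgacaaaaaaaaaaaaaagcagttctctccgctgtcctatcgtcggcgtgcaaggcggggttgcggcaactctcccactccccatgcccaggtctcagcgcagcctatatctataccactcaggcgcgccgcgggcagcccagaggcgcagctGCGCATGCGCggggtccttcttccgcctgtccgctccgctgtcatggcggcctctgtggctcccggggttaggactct

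The NRF1 core, GCGCANGCG on either strand, was present in 8 of the 36 member windows (22.2%), against 9.97% of the 4371 windows of all named array genes and 6.25% of all 32851 windows in the table. Some NRF1 matches overlap one another on opposite strands, and a window was counted once. The GABP core, CCGGAAG on either strand, was present in 11 member windows (30.6%), against 12.4% of array gene windows and 8.86% of all windows. The YY1 core, AAGATGGC on either strand, was present in 3 member windows (8.33%), against 3.48% and 2.75%. Several of the 36 windows are alternative starts of the same gene and share sequence. At least 1 of the 3 cores was found for 19 of the 32 genes.

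The 8 genes with an NRF1 core had a median log10 ratio of 0.0381, against 0.0905 for the 24 without one. The 10 genes with a GABP core had a median of 0.0932, against 0.0802 for the other 22. The 3 genes with a YY1 core had a median of 0.146, against 0.0830 for the 29 without one. Mrpl9, the lowest of the members, carries the NRF1 core from position -28 relative to its start, and Ndufa12, the highest, carries none of the 3 cores in this window. In Cox8a the first GABP core begins at position -5, and in Timm8b at position -12. A match to such letters is no proof of binding, and these values describe the windows only.

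Complex I, which takes electrons from NADH, held 6 of the 15 genes that passed the 25% difference on the positive side. The 8 measured genes were placed in it by the Nduf name. All but Ndufa4l2, which is placed here by its name only, encode accessory subunits. No gene of the catalytic core was among the single-gene probes. Of the 8, 7 were positive on both arrays, with a median log10 ratio of 0.146 (1.40-fold). Ndufa12, an accessory subunit, had log10 ratios of 0.231 (+ polarity) and 0.210 (- polarity), a mean of 0.220 ± 0.014 (1.66-fold), at the 94.1 percentile of all named genes. In limma's fit its adjusted p was 0.185, the lowest of the members. Both arrays therefore gave Ndufa12 the same sign and nearly the same size, without passing an adjusted p of 0.05.

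Ndufa2, also an accessory subunit, had 0.144 and 0.182 on the + and - polarity arrays (1.46-fold). Ndufb11 (0.148 and 0.173) and Ndufb8 (0.132 and 0.175), accessory subunits of the membrane arm, were close to it. So was Ndufa11, another membrane arm subunit, at 0.118 and 0.159 (1.37-fold). The means of these 4 genes lay between 0.138 and 0.163, a range no wider than the difference between the arrays for any of them but Ndufb11, so their order is not resolved. Ndufc2 was at 0.0867 and 0.101, with a mean just short of the 25% difference (1.24-fold). Ndufb6 was uneven, at 0.156 on the + polarity array but 0.0505 on the - polarity array. Ndufa4l2, known as a hypoxia-inducible relative of the respiratory protein Ndufa4, had opposite signs (0.0442 and -0.0302) and a mean of 0.00701 ± 0.053.

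Complex II, which feeds electrons from succinate, was represented by 2 genes. Sdhb, its iron-sulfur subunit, was positive on both arrays but uneven, at 0.126 (+ polarity) and 0.0324 (- polarity). Sdhaf2, an assembly factor that helps attach the flavin cofactor to Sdha, was at -0.0603 and 0.00326, and its 2 probes gave means of -0.0384 and -0.0186. Complex III had a single measured gene under the rule, Uqcrh, the hinge subunit, at 0.117 and 0.169 (1.39-fold). In the mean, Uqcrh thus lay with the larger complex I ratios, and the complex II genes below them. On the + polarity array alone Sdhb was above Uqcrh, so the order of these 2 genes is not resolved.

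Complex IV, cytochrome c oxidase, held 4 genes on the positive side and 1 on the negative. Cox8a, a small nuclear-encoded subunit, was at 0.154 and 0.171 on the + and - polarity arrays (1.45-fold). Cox6a1, the widely expressed isoform of its subunit, was at 0.179 and 0.139 (1.44-fold), and Cox7a2 was at 0.112 and 0.185 (1.41-fold). Cox4i1, a regulatory subunit, was lower at 0.0516 and 0.129 (1.23-fold). Cox7a2l, a relative of Cox7a2 that is known to join complexes III and IV into supercomplexes, was at -0.0779 and -0.0696 (1.19-fold, negative on both arrays). The ratios of Cox7a2 and Cox7a2l therefore had opposite signs on each array, with a mean of 0.149 ± 0.052 for Cox7a2 and -0.0738 ± 0.0058 for Cox7a2l.

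Among the ATP synthase genes, those of the membrane part had larger ratios than those of the catalytic head. The membrane part was measured through 2 genes, and both reached 25%. Atp5pb, the b subunit of the peripheral stalk, was at 0.127 and 0.166 (1.40-fold), and Atp5g1, which encodes the c subunit of the rotor ring, was at 0.133 and 0.141 (1.37-fold). In the catalytic head and central stalk, 4 genes had a median of 0.00673, which was 0.0238 (+ polarity) and -0.0103 (- polarity) on single arrays, and none reached 25%. Atp5a1, the alpha subunit, was at 0.00163 and -0.0220, and Atp5b, the catalytic beta subunit, was at -0.0417 and -0.0273. Atp5c1, the gamma subunit of the central stalk, was at 0.0459 and 0.00147, while Atp5d, the delta subunit of that stalk, was at 0.112 and 0.0624 (1.22-fold). The 2 membrane genes were higher than all 4 head and stalk genes on both arrays. This grouping was made after the values were seen and was not tested.

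The mitochondrial ribosome, which makes the mitochondrially encoded core subunits, had a lower median than the chain. Of its 9 genes, 6 were positive on both arrays, 1 negative on both and 2 opposite, with a median of 0.0393 (1.09-fold), against 0.120 (1.32-fold) for the 22 genes of the chain and ATP synthase. Of the ribosome genes 1 reached 25% on the positive side, where 12 of the 22 chain and ATP synthase genes did and 16.5% of all named genes. The ribosome count is therefore near the share of all genes. The difference between the groups has no replicate and was not tested. All but Mrps31 encode proteins of the large subunit.

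Mrpl47 had the highest mean ratio among them, at 0.0626 and 0.167 on the + and - polarity arrays (1.30-fold). Mrpl21 followed in the mean, at 0.0901 and 0.0758 (1.21-fold). It was above Mrpl47 on the + polarity array, so the order of Mrpl47 and Mrpl21 is not resolved. Mrpl54 was at 0.0149 and 0.131, less in the mean than its spread (0.073 ± 0.082). Mrpl45, known to lie near the exit of the peptide tunnel facing the membrane, was at 0.0431 and 0.0411, Mrpl36 at 0.0638 and 0.0148, and Mrpl28 at 0.0345 and 0.0388. These 3 differed from 0 by 1.09-fold or 1.10-fold only. Mrps31, the small subunit gene, was at -0.00552 and 0.0522.

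Mrpl9 stood apart from the other ribosome genes. It was at -0.166 and -0.142 (1.43-fold on the negative side), lower than every other member on both arrays. Without it the 8 remaining ribosome genes had a median of 0.0407 and a mean of 0.0461, against a mean of 0.0239 with it. Mrpl44, whose protein has a ribonuclease-like fold, had opposite signs (0.0340 and -0.120), and its SD of 0.11 was the largest among the 37 members.

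The 6 import genes had a median of 0.0566 (1.14-fold). Taken singly, the arrays gave 0.0858 (+ polarity) and 0.0585 (- polarity). The 3 TIM genes were positive on both arrays, with a median of 0.107 (1.28-fold). Timm8b, a small chaperone of the intermembrane space, was at 0.190 and 0.182 on the + and - polarity arrays (1.53-fold), the second highest member in the mean. Its relative Timm8a1 was at 0.133 and 0.0811 (1.28-fold), and Timm22, the channel for carrier proteins, at 0.0884 and 0.0579 (1.18-fold).

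The 3 TOM genes had a median of 0.0341 (1.08-fold), and none reached 25%. Tomm20, a receptor for presequences, was at 0.00905 and 0.0591, and Tomm34, which is largely a cytosolic co-chaperone, was at -0.00361 and 0.0243. Tomm70a, the receptor for carrier precursors, was at 0.0832 and -0.00317 as the mean of 2 probes that disagreed. One probe gave -0.0418 and -0.0135, the other 0.208 and 0.00716. The value of Tomm70a is therefore uncertain, and it is not resolved from 0.

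Members probed from different kinds of record had different medians, but the means did not differ in the same way within the chain. The 13 members whose probes carry a RefSeq mRNA accession had a median of 0.137, and the 24 with other accessions, chiefly expressed sequence tags, had one of 0.0731. Of the 9 ribosome members, 8 are in the second group, so record type and role overlap in part. Within the second group these 8 had a median of 0.0407, against 0.0986 for its 12 chain and ATP synthase genes, a smaller gap than over all members. The first group holds 1 ribosome gene and gives no such comparison. Its 10 chain and ATP synthase genes had a median of 0.143 and a mean of 0.0903. The 12 of the second group had a mean of 0.0973. Within the chain and ATP synthase the order of the groups therefore differed between median and mean. The part of record type in the ratios was otherwise not tested. The RefSeq gene table lists a pseudogene named after 4 of the members (Ndufa12, Uqcrh, Atp5c1 and Atp5pb), and signal shared with such copies was not tested.

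The citric acid cycle and fatty acid oxidation supply the chain with electrons. Of 8 measured genes of the citric acid cycle and pyruvate dehydrogenase, 0 were positive on both arrays, 3 were negative on both and 5 opposite, with a median of -0.0370. That median turned sign between the arrays, at -0.0477 (+ polarity) and 0.00821 (- polarity). Pcx, pyruvate carboxylase, was the highest at 0.0300 ± 0.15 and Idh2, the mitochondrial isocitrate dehydrogenase, the lowest at -0.0996 ± 0.21. Both had opposite signs on the arrays. Of 5 measured genes on a fatty acid oxidation list, 3 were negative on both arrays and 1 positive, with a median of -0.0593. The median was negative on each array (-0.0759 and -0.0426). This list was incomplete. Ech1, a further gene of the pathway outside the list, was positive, at 0.127 (+ polarity) and 0.198 (- polarity). Acadm and Acadvl, acyl-CoA dehydrogenases for medium and very long chains, were at -0.106 ± 0.037 and -0.0910 ± 0.0088, and Eci2 was at 0.0530 ± 0.0028.

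Listed genes that express the mitochondrial genome gave no common sign. Of 6 measured on the list, 2 were positive on both arrays and 1 negative. Their median of -0.0245 turned sign between the + and - polarity arrays (-0.0262 and 0.0207). Slirp, an RNA-binding partner of mitochondrial messengers, was at 0.159 ± 0.19 and Mtif2, the translation initiation factor, at -0.0647 ± 0.0051, and Tfam, which packages mitochondrial DNA, was at -0.0243 ± 0.047. This list was also incomplete. Outside it, Iars2 (-0.137 and -0.186 on the + and - polarity arrays) and Eral1 (-0.0492 and -0.0471) were negative on both arrays. Of 9 chaperones, proteases and import factors outside the rule, 4 were positive on both arrays and 3 negative, none reached 25% and the median was 0.0414, or -0.00186 and 0.0231 on the arrays taken singly. Hspd1, the matrix chaperonin, was at 0.0907 ± 0.0076 and Chchd3 at -0.0773 ± 0.038. The 6 carriers and porins had a median of -0.00638 (-0.0175 and 0.0207 on the arrays taken singly), with Slc25a4, an ADP/ATP carrier, at 0.131 ± 0.050 and its relative Slc25a5 at -0.0467 ± 0.038.

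Genes that work directly with the chain but carry other names were on its side. On a list of such genes, all 6 measured had a mean above 0 and 5 were positive on both arrays, with a median of 0.103. Gpd2, the mitochondrial glycerol-3-phosphate dehydrogenase that passes electrons to the chain, was at 0.321 and 0.268 on the + and - polarity arrays (1.97-fold). Atpif1, the inhibitor protein of ATP synthase, was at 0.249 and 0.236 (1.75-fold). Both ratios were larger than that of any member. Cycs, cytochrome c, was at 0.0289 ± 0.014 and Cox16, an assembly factor of complex IV, at 0.0324 ± 0.032. The list was incomplete. Cox14, another such factor outside the list, was at 0.123 (+ polarity) and 0.190 (- polarity). Etfrf1, a regulator of an electron transfer protein, was also outside the list. It was negative on both arrays, at -0.0645 (+ polarity) and -0.0669 (- polarity).

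Of a list of regulators of mitochondrial content, 4 genes were measured. Yy1 was at 0.0574 ± 0.017 and Esrra, a nuclear receptor acting on respiratory genes, at 0.0513 ± 0.053. Myc, a growth-promoting factor, was at -0.176 ± 0.023. Ppargc1a, which encodes the coactivator PGC-1alpha, was at -0.144 (+ polarity) and -0.514 (- polarity), so its mean of -0.329 (2.13-fold) rests mainly on the - polarity array. Gabpb2, which encodes a GABP subunit, was outside this list. It was at 0.00371 (+ polarity) and 0.0194 (- polarity). Of the smaller lists, the 4 antioxidant genes had a median of 0.0290, with Gpx4 at 0.113 ± 0.012, and of the 2 measured genes of fusion and fission Fis1 was at 0.117 ± 0.034 and Mtfr1 at -0.157 ± 0.028.

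**Figure D3:**
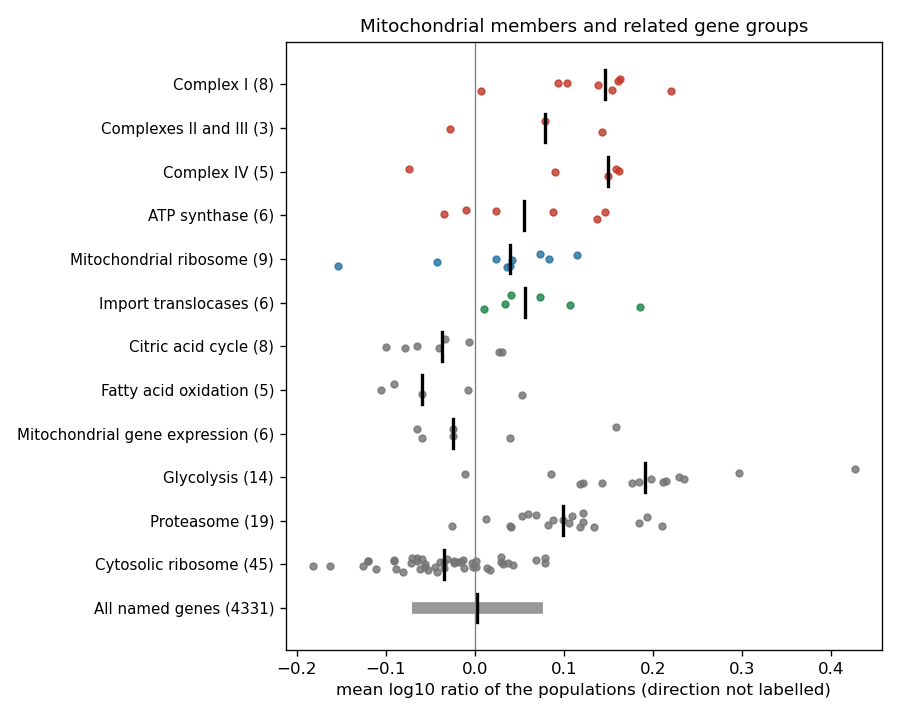
Mean log10 ratio over both arrays for single genes (points) in the mitochondrial groups (coloured) and in related groups (grey), with the number of genes in brackets. Vertical bars are medians, and the thick grey bar spans the middle quartiles of all named genes, from -0.0705 to 0.0760. Complexes I and IV have medians of 0.146 and 0.149, whereas the listed fatty acid oxidation genes and the cytosolic ribosome have medians of -0.0593 and -0.0351. The lists of fatty acid oxidation and of mitochondrial gene expression do not hold every measured gene of their kind.

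The mitochondrial and cytosolic ribosomes had medians of opposite sign. The 9 mitochondrial ribosome genes had a median of 0.0393, against -0.0351 for 45 cytosolic ribosomal protein genes, of which 9 were positive on both arrays and 26 negative. Among groups on the same side as the respiratory chain (median 0.120), the 19 proteasome subunit genes had a median of 0.0995, with 10 at 25% or more, and the 14 glycolysis genes had one of 0.191, with 12 at 25% or more. None of these differences between gene groups has a replicate, and none was tested.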

How the data were processed

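Total RNA of splenic gamma delta T cells carrying CD5, of LAT3YF and of wildtype mice, was compared on 2 dye-reversed 2-colour arrays. The values are the authors' deposited log ratios, 1 per probe and array, and were read as log10 by assumption. Their range does not settle the base. The base, the numerator, the scanner, the background correction and the normalization are, for this table, not given in the sources used here. Intensities and detection were not analysed here, and the small number of arrays limits the precision.

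The sign of the - polarity array was turned, since the columns as deposited ran against each other (over 8014 probes, Pearson r was -0.301 and Spearman rho -0.154). Of these probes 4654 had 1 gene in the platform annotation, 73 several and 3287 none listed. A gene's value is the mean over its single-gene probes and over both arrays. All 37 member genes matched the RefSeq gene table by identifier, with unchanged symbols. No coordinates accompany the values, and those printed with promoters are of GRCm38.p6.

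Calls needed the same sign on both arrays and a mean of at least 1.25-fold (0.0969 on the log10 scale), 1.5-fold (0.176) or 2-fold (0.301). Limma 3.58.1 in R 4.3.3 was fitted to all 4331 genes with Benjamini-Hochberg adjustment, and tables were made with pandas 2.3.3 in Python 3.11.15. Alternatives were each array alone, centring, scaling, other log bases, medians over probes, means over genes and a 1.5-fold threshold. Members, lists and roles were chosen with earlier results of these data known. Every member could be named, and of each other list the 2 highest and 2 lowest genes. Only some of these are given in the text. Tfam, Sco1, the landmark genes Il13 and Gata3 and the marker genes Cd3e, Cd3g and Thy1 lie outside that rule. So do Ech1, Cox14, Etfrf1, Iars2, Eral1 and Gabpb2, which were on no list. All of these genes were picked after their values were seen.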

Additional observations from a re-analysis of the deposited data

How the results depend on the processing

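No paired analysis was possible because the pair of arrays is 1 group and 1 replicate. Of 61 values recomputed under the alternatives, 46 stayed within the spread between the arrays or, for counts, within 1.5 times, and 15 moved. Some of the 46 could not have moved, so this count does not measure robustness. No member has more than 2 probes, so the median over its probes equals their mean. Counts by sign alone do not depend on the base of the logarithm. The medians of all members, of the chain and ATP synthase, of the ribosome and of the import genes stayed positive under each alternative. With 1 array at a time, the median log10 ratio lay between 0.0624 and 0.0867 for all members, between 0.118 and 0.134 for the respiratory chain and ATP synthase, between 0.0345 and 0.0411 for the mitochondrial ribosome and between 0.0585 and 0.0858 for the import genes. The members with a negative ratio were then 6 or 7, and those negative by at least 25% 1 or 2. With the mean over genes in place of the median, the chain and ATP synthase gave 0.0941 and the ribosome 0.0239. With a threshold of 1.5-fold, 2 members were called positive and 0 negative. Read as log2 or as natural logs, the values gave 0 members past 25% on either side, and the largest member ratio of 1.66-fold would be 1.16-fold as a log2 value. The sizes in fold therefore rest on the base of the logarithm, while signs and the order of genes do not. Each median under centring or scaling stayed within the spread between the arrays, while the median over probes could not differ from the main value. Without intensities, weak spots could not be told from bright ones, and ratios of weak spots are less certain.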
